A study of Capra hircus with 6 samples.

Results

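Circular RNAs (circRNAs) are closed RNA molecules made when the spliceosome joins the 3′ end of an exon back to the 5′ end of the same or an earlier exon, a reaction called back-splicing. A circle that encloses several exons can keep or lose the introns between them, and a read across the back-splice junction is the evidence that the circle exists. Circles of more than 1 exon are a common form in animal tissues, and they lack the free ends at which linear RNA is degraded. The multi-exon circRNAs of goat pre-ovulatory follicles were defined here as circles whose annotation listed at least 2 exons of a single host gene. A host was set aside when its identifier occurred on more than 1 chromosome or when it had a listed exon or intron over 1000000 bases. A circle was counted once over the 6 libraries by its chromosome, start, end and strand. By this rule 603 of 13950 distinct circRNAs were multi-exon (4.32%), and 304 genes hosted them. They were 29.5% of the 2043 circRNAs with a usable host, the others being 827 single-exon and 613 intron-only circles. Of the 603, 266 lay on the plus strand, 337 on the minus strand, and 23 on unplaced scaffolds.

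Ovarian follicles were taken from 3 goats of the Boer meat breed and from 3 of the Macheng black breed. All 6 goats had normal estrous cycles and received 1000 IU PMSG, a follicle-stimulating gonadotropin, and 500 IU hCG, an ovulatory gonadotropin. Each library was made from total RNA of 1 goat after depletion of ribosomal RNA, from whole follicles, so several cell types contributed to every value. None of 32 markers of granulosa cells, theca cells, oocytes, endothelium and leukocytes hosted a circRNA with a usable host, so the tissue label could not be checked from these tables. Of the 32, 31 were in the gene reference used to name hosts. Positions are 1-based and follow the deposited tables, for which no genome build is named in the sources used here.

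The Boer libraries held 74796, 24884 and 41536 back-splice reads, and the Macheng black libraries held 39020, 49141 and 23480. Multi-exon circles took 9587 of the 252857 back-splice reads (3.79%). The lowest share in a library was 3.26% in Macheng black 1 (exact 95% interval 3.09 to 3.44), and the highest was 4.03% in Boer 2 (3.79 to 4.28). These intervals cover counting error only. Boer 1, with the most reads, listed 333 multi-exon circles, and Macheng black 3, with the fewest, listed 154. The tables list a circle from 2 reads on, so an unlisted circle had 0 or 1 read in that library.

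The listed exons and introns had a lower limit that shapes the class. Of 7654 exons and introns listed in circles with a usable host, counted once for each circle that lists them, none was shorter than 150 bases. The 1027 distinct exons listed in multi-exon circles had a median length of 187 bases (quartiles 166 and 222), and the shortest was exactly 150. The 1586 distinct introns were longer, with a median of 1871.5 bases (quartiles 959.5 and 3947). The listed parts did not tile the circles. Between listed parts, 1074 uncovered stretches remained, counted circle by circle, with a median of 115 bases. Of these, 912 (84.9%) were under 150 bases. Of the 956 stretches that lay between a pair of listed introns, where an exon is placed by definition, 92.4% were under 150 bases and the median was 111. The class as listed is therefore one of circles that enclose at least 2 exons of 150 bases or more. The exon numbers count what the tables list for a circle, and no read in them shows which inner exons a circle keeps.

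**Figure D1:**
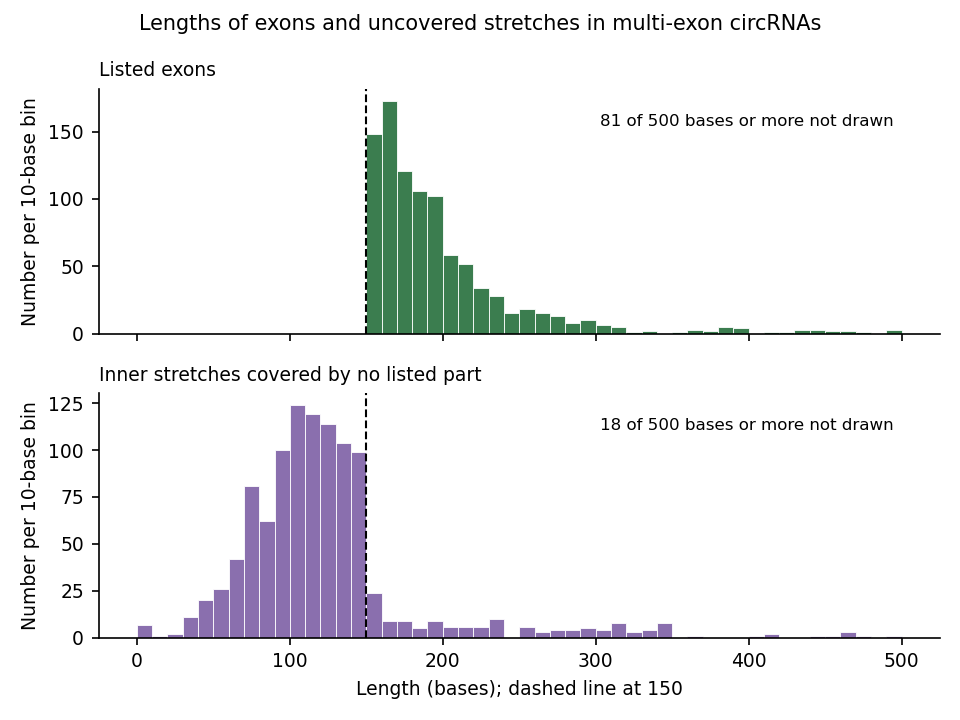
Length in bases (x axis) of the exons listed in multi-exon circRNAs and of the uncovered stretches between listed parts, in equal bins (y axis, number of exons or stretches). The listed exons begin at 150 bases, with a median of 187, and the uncovered stretches lie mostly below it, with a median of 115. The 81 exons and 18 stretches of 500 bases or more are not drawn. Exons are distinct, and stretches are counted circle by circle.

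Counted as listed, 381 multi-exon circles (63.2%) had 2 exons, 124 (20.6%) had 3, 52 (8.62%) had 4, 34 (5.64%) had 5 and 12 (1.99%) had 6 to 8. In a wider count, listed exons that overlap were merged, and each uncovered stretch under 150 bases that bordered introns or a circle's end was added. The median then rose from 2 to 4 and the highest value was 15. At least 1 such stretch occurred in 483 of the 603 (80.1%), with a mean of 2.09 per circle. By the same count, 641 of the 827 single-exon circles (77.5%) and 437 of the 613 intron-only circles (71.3%) would hold 2 or more. The boundary of the class thus depends on exon length. Circles just inside it, with 2 listed exons, had a median genomic span of 9076 bases and a median of 4 reads in all libraries together. Circles just outside it, with 1 listed exon, had a median span of 4294 bases and also a median of 4 reads.

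**Figure D2:**
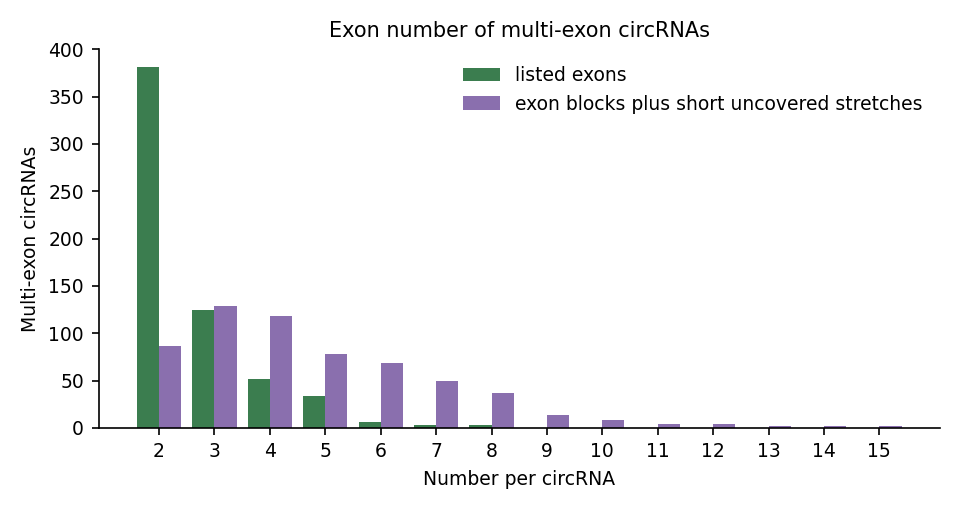
Number of multi-exon circRNAs (y axis) by exon number (x axis), counted as listed and with short uncovered stretches included. The 381 circles with 2 listed exons fall to 87 when the stretches are counted, and the tail reaches 15.

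The circles with the most listed exons had few reads. The longest series belonged to SEC23IP, which codes for a partner of COPII vesicle coats: its circle at chr26:38415323-38443320 listed 8 exons and 14 introns and had 3 reads, all in Macheng black 1. Both circles of CLTC, the clathrin heavy chain, that listed 8 exons started at chr19:10059498, and each had 2 reads in 1 library. STT3B, a catalytic subunit of oligosaccharyltransferase, gave a circle of 7 exons at chr22:6021948-6061830 with 4 reads each in Macheng black 2 and 3. LOC102186637 gave another circle of 7 exons, with 2 reads in Macheng black 1. Most reads fell on short series, which were also most of the circles: 63.2% listed 2 exons. Circles with 2 listed exons held 6251 reads (65.2%), those with 3 held 1662 (17.3%), those with 4 held 1010 (10.5%), those with 5 held 580 (6.05%) and those with 6 to 8 held 84 (0.876%). The median number of reads per circle was 4, 4, 6, 5.5 and 3 in the same order. Of the circles with 2, 3, 4 and 5 exons, 8.40%, 10.5%, 11.5% and 11.8% were listed in all 6 libraries. None of the 12 circles with 6 to 8 exons was, but 12 circles are too few to set this apart from those shares.

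Introns were listed in nearly all of these circles. At least 1 intron was listed in 595 of the 603, the median was 3 and the highest number was 14. Listed introns covered a median of 92.0% of the span. The spliced length in the tables was the sum of the listed exons and introns, capped at the full length, in all 28310 entries with a listed part, so it does not show that an intron was absent from or present in a circle. Its median over the 603 was 10596 bases (quartiles 5584.5 and 17549), or 97.7% of the span. The median span was 11128 bases, from 421 to 75139. The bases outside listed introns, which would remain if every listed intron were removed, had a median of 826 (quartiles 580 and 1175.5). They rose with exon number, from a median of 648 at 2 listed exons to 1852 at 6 to 8, which follows in part from the count itself.

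The longest spliced length was 73781 bases, for a circle of CDK5RAP2, which codes for a centrosomal protein, at chr8:107888932-107964070. It was listed in Boer 2 (9 reads), Macheng black 2 (10 reads) and Macheng black 3 (12 reads) and was unlisted elsewhere. The next were circles of CEP112 (70322 bases), RANBP17 (65075 bases), the ubiquitin ligase gene UBE3A (58785 bases) and gene identifier 102168993 (57930.5 bases, the mean of differing entries). Each of these was listed in 1 or 2 libraries only. At the other end stood a circle of 336 bases from GTF2F1, a subunit of the general transcription factor TFIIF, at chr7:14529190-14529610, with 4 reads in Boer 1 and 2 in Boer 2. Other short spliced lengths were those of circles of gene identifier 102188146 (571 bases), MED13 (613 bases) and RCBTB1 (840 bases). The circle of 102188146 spanned 6235 bases and listed 2 exons and no intron, so most of its span was covered by no listed part. The RCBTB1 circle was listed in 4 libraries, with 3, 0 and 2 reads in Boer 1 to 3 and 6, 9 and 0 in Macheng black 1 to 3.

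The ends of the circles often coincided with annotated boundaries. Both ends lay at an edge of an exon or intron listed for the host in 294 circles (48.8%), 1 end did so in 253, and neither did in 56. Boundaries of unlisted exons under 150 bases were matched only where they coincided with the edge of a listed part, such as a neighbouring intron. Ends were also shared: 294 circles (48.8%) had a start or an end in common with another multi-exon circle. On the acceptor side, where the circle begins in the direction of transcription, 84 of 488 positions served several circles, 199 in all, and the most used position served 8. On the donor side, 70 of 519 positions served several circles, 154 in all, and the most used served 4.

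Members were unevenly spread over the hosts. One circle came from each of 170 hosts, 2 to 4 from each of 110, and 5 or more from each of 24, which together gave 155 circles. For 95 hosts every circle listed was multi-exon. The highest number came from MED17, which codes for a subunit of the head module of Mediator, the complex that links transcription factors to RNA polymerase II. MED17 on chromosome 29 gave 13 multi-exon circles among 16 in all, with 875 of its 912 reads. Its multi-exon reads were 277, 104 and 118 in Boer 1 to 3 and 115, 166 and 95 in Macheng black 1 to 3. Scaled to library size, the levels of the gene's circles overlapped between the breeds. Of the 13, 8 shared the acceptor-side end at 539799 (the gene is on the minus strand) and 5 were listed in all 6 libraries. The 3 most abundant circles of this set reached back to 531840, 533364 and 536388 and listed 4, 3 and 2 exons.

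All 7 multi-exon circles of ITCH, a HECT-type ubiquitin ligase gene on chromosome 13, began, on the acceptor side, at 61854918 or 61863364. ADGRA3, the gene of an adhesion G protein-coupled receptor, shared the other side: 4 of its 8 circles, all multi-exon, had their donor-side end at 40137482.

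HMCN1, which codes for the extracellular matrix protein hemicentin, was arranged otherwise. Its 12 multi-exon circles, among 25 in all, had 11 different starts and 12 different ends spread along the gene on chromosome 16. They held 58 of the host's 223 reads, with 15, 4 and 4 in Boer 1 to 3 and 11, 14 and 10 in Macheng black 1 to 3, and none was listed in all 6 libraries. The SUMO protease gene SENP6 gave 9 multi-exon circles with 133 of 477 reads. ATXN10 gave 7 with 187 of 195 reads, and ALMS1, a centrosome and basal body gene, gave 7 with 127 of 152. Over all 304 hosts, a median of 72.2% of the host's back-splice reads fell on multi-exon circles.

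Reads were concentrated in a small number of multi-exon circles. The top 10 held 26.7% of the class's reads and the top 50 held 58.1%. Of the 603, 55 (9.12%) were listed in all 6 libraries and held 57.5% of the reads, while 323 (53.6%) were listed in 1 library and held 9.15%. In all, 271 circles had only 2 or 3 reads. Levels of single circles are given below as CPM, the count per 1000000 back-splice reads, scaled with TMM, which aligns libraries on the bulk of their circles. One read corresponded to 15.5 to 38.1 CPM, depending on the library.

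The most abundant multi-exon circle came from CAMSAP1, which codes for a protein that binds microtubule minus ends, at chr11:101848987-101850159. It listed 2 exons and 1 intron over 1173 bases. It had 126, 68 and 103 reads in Boer 1 to 3 and 63, 73 and 38 in Macheng black 1 to 3. On the CPM scale these were 1948, 2326 and 2410 against 1758, 1596 and 1446. Every Boer library stood above every Macheng black library, with means of 2228 ± 246 and 1600 ± 156 CPM (SD, n = 3 each), but edgeR's quasi-likelihood test gave a log2 fold change of 0.47 ± 0.40 (SE) and an adjusted p of 0.9998. This circle also took an unusual part of the reads at its own locus. Back-splice reads were 56.5% of its back-splice and non-junction reads in Boer 1 (exact 95% interval 49.7 to 63.1), 63.6% in Boer 2, and 68.7% in Boer 3. In Macheng black 1 to 3 it was 71.6%, 54.1% and 37.6% (28.2 to 47.8 for the last). The pooled share was 58.6%, against a median of 0.980% over all 603 (quartiles 0.475 and 2.37). Non-junction reads come from linear and circular RNA alike and accumulate with length, and this circle is among the short ones.

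C23H6orf106 gave the next circle, at chr23:8385504-8391414, with 113, 27 and 54 reads in Boer 1 to 3 and 68, 74 and 35 in Macheng black 1 to 3. Its levels overlapped between the breeds, at 1311 ± 414 and 1616 ± 283 CPM. The LOC102191110 circle at chr28:4459619-4468139 had 117, 41 and 46 reads against 36, 43 and 24, or 1429 ± 367 against 953 ± 46.9 CPM, with the lowest Boer library above the highest Macheng black library. ANGEL2 at chr16:68248922-68252547 had 64, 46 and 46 reads against 31, 58 and 11. Among these 4 the spread within a breed was widest for ANGEL2 in the Macheng black goats, at 851 ± 425 CPM.

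The remaining 6 of the top 10 included the 3 MED17 circles. The circle from 531840 to 539799 had 81, 30 and 32 reads in Boer 1 to 3 and 39, 34 and 28 in Macheng black 1 to 3, or 1009 ± 252 against 966 ± 193 CPM. The circle from 533364 had 79, 24 and 26 reads against 26, 49 and 36, and the circle from 536388 had 42, 18 and 19 against 16, 18 and 17. All 3 overlapped between the breeds. The circle of EHMT1, a histone H3 lysine methyltransferase gene, at chr11:105121243-105124267, had 63, 33 and 39 reads against 27, 45 and 17. It reached 1005 ± 112 CPM in Boer and 795 ± 172 in Macheng black goats. SATB1, a chromatin organiser gene, gave the one long circle of the set, with 5 exons over 42895 bases at chr1:152935334-152978228. It had 29, 34 and 25 reads against 23, 18 and 32, and its levels of 732 ± 379 and 751 ± 423 CPM overlapped. The LOC102169298 circle at chr11:226679-240940 had 59, 19 and 25 reads against 14, 25 and 12, or 716 ± 173 against 465 ± 78.2 CPM. In 3 of the top 10 (CAMSAP1, LOC102191110 and LOC102169298) every Boer library stood above every Macheng black library, as in 6.92% of all 3712 circRNAs tested between the breeds. In 0 of the 10 did the reverse hold, against 4.8% of those tested. By edgeR the log2 fold changes of the 10 ran from -0.29 to 0.63, each with an adjusted p of 0.9998.

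**Figure D3:**
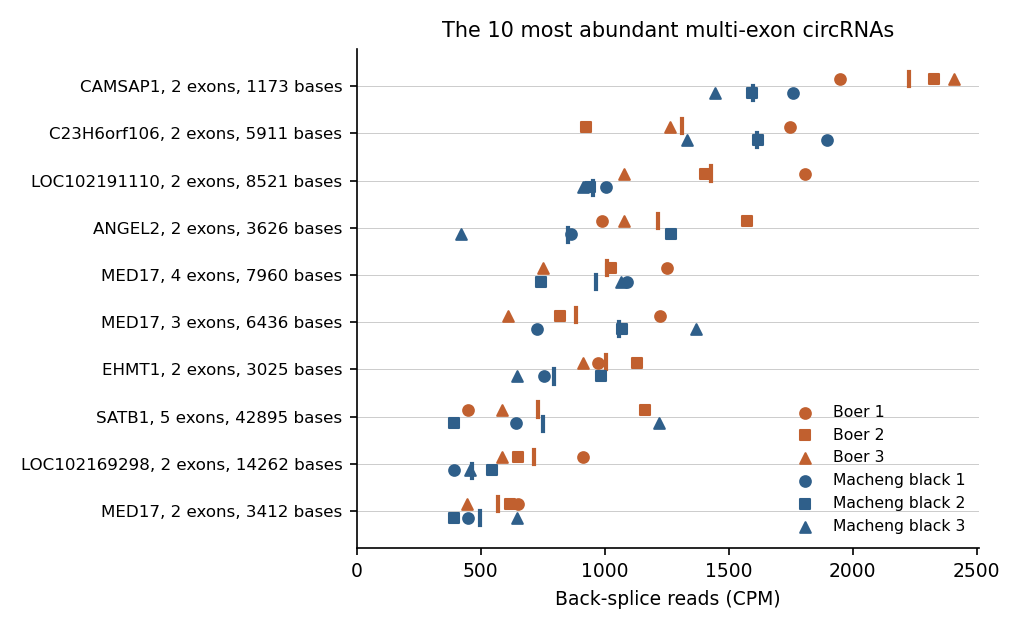
Level in CPM (x axis) of the 10 most abundant multi-exon circRNAs in each of the 3 Boer and 3 Macheng black libraries (points). The CAMSAP1 circle leads in 4 of the 6 libraries and the C23H6orf106 circle in Macheng black 1 and 2, and the breeds overlap in 7 of the 10 circles. Of all 3712 circRNAs tested, 11.7% showed no overlap.

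Multi-exon circles were next compared with single-exon and intron-only circles, library by library. Each of the 6 libraries gave 1 value per class, and 10 such comparisons were made with 2-sided exact permutation tests over the 6 pairs, which cannot give a p below 0.03125 (0.0391 after Benjamini-Hochberg adjustment). The median number of back-splice reads per listed circle was 3.5 on average in all 3 classes (exact permutation p = 1.0 for both comparisons), close to the minimum of 2 reads at which a circle is listed. The mean number of reads, for which no test was run, was 6.86 ± 1.14 (SD, n = 6) for multi-exon circles against 10.6 ± 2.24 for single-exon and 9.73 ± 2.14 for intron-only circles, and was lower for multi-exon circles in 6 of 6 libraries against each. The median share of back-splice reads among local reads was 1.15% ± 0.218 (SD, n = 6) for multi-exon circles, 3.06% ± 0.670 for single-exon circles and 4.07% ± 1.02 for intron-only circles. It was lower for multi-exon circles in 6 of 6 libraries against each other class (exact permutation adjusted p = 0.0391). Multi-exon circles also spanned more genome, with a mean of the library medians of 10894 ± 697 bases against 4584 ± 446 and 5725 ± 628. The greater span follows in part from the rule, which asks for 2 or more exons, and is given as a description.

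Recurrence differed less. A multi-exon circle of a library was listed in at least 2 of the other 5 libraries in 63.1% ± 7.24 of cases, against 66.7% ± 7.56 of single-exon and 56.2% ± 6.94 of intron-only circles. The direction held in 6 of 6 libraries for each comparison (exact permutation adjusted p = 0.0391). Among circles with at least 5 reads in the library neither comparison of recurrence passed (exact permutation adjusted p = 0.469 and 0.729). The differences also moved with span. Among circles of 5000 to 15000 bases, a range chosen after seeing the data, the back-splice share of multi-exon circles stood 0.705 percentage points below that of single-exon circles (exact permutation adjusted p = 0.104). In that range the recurrence of multi-exon circles was 3.56 percentage points below that of intron-only circles, the opposite direction (exact permutation adjusted p = 0.104).

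**Figure D4:**
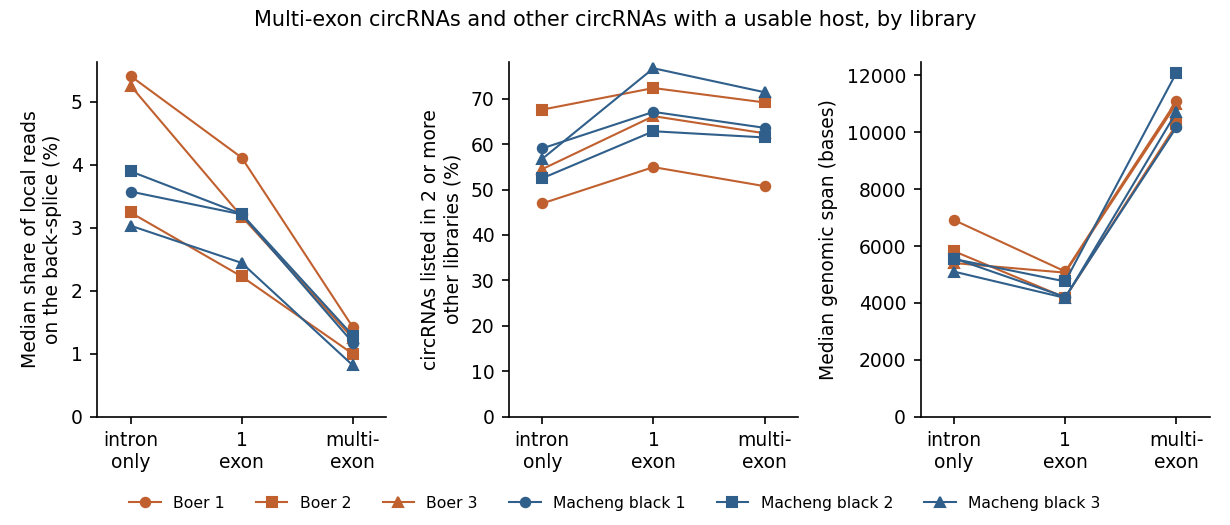
Values of multi-exon, single-exon and intron-only circRNAs in each of the 6 libraries (points joined by library): median percent of local reads on the back-splice, percent of circles listed in 2 or more other libraries, and median genomic span in bases (y axes). In all 6 libraries the multi-exon class is lowest on the first measure, between the other classes on the second and highest on the third.

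No multi-exon circle differed between the breeds by the test. A circRNA was tested when 3 or more libraries had 2 or more of its reads. Of 3712 tested, 13 passed an adjusted p of 0.05 in edgeR's quasi-likelihood test (0.35%), 4 towards Boer (0.108%) and 9 towards Macheng black goats (0.242%). The filter left 182 of the 603 multi-exon circles, with 83.7% of the class's reads, and 0 of them passed. At an unadjusted p under 0.05 there were 10 of the 182, or 5.49%, against 194 of all tested, or 5.23%. DESeq2 also called 0, against 8 of all 3712. At an unadjusted p under 0.05 it had 6 of the 182 (3.30%), against 113 of all tested (3.04%). The smallest adjusted p by edgeR was 0.645. The fold change was positive, towards Boer, in 100 circles and negative in 82, and the median log2 fold change was 0.11, equal to that of all circRNAs tested. The 3 libraries of a breed did not overlap those of the other in 22 of the 182, against 435 of the 3712 (11.7%). Of the 22, 14 had the Boer libraries on top (6.92% of all tested) and 8 the Macheng black libraries (4.8% of all tested). In bulk follicles, fewer cells of a type and less RNA per cell cannot be told apart.

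The smallest p higher in Boer goats belonged to a further MED17 circle, chr29:520898-535213, which does not use the shared acceptor. It had 19, 13 and 4 reads in Boer 1 to 3 and 2, 2 and 0 in Macheng black 1 to 3. The levels of 277 ± 176 and 33.2 ± 29.4 CPM did not overlap and differed 8.36-fold, with a log2 fold change of 2.82 ± 0.98 (SE) and an edgeR adjusted p of 0.645. MAP9, which codes for a microtubule-associated protein of the spindle, gave a circle at chr17:1800130-1818429 with 46, 11 and 20 reads against 4, 16 and 6. Its levels of 518 ± 173 and 230 ± 119 CPM differed 2.26-fold (edgeR adjusted p = 0.880). RSPO3, the gene of a secreted enhancer of Wnt signalling, gave a circle at chr9:11324832-11332883 with 6, 12 and 16 reads against 0, 9 and 0, and its libraries overlapped (293 ± 174 and 65.6 ± 114 CPM, edgeR adjusted p = 0.917).

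Some circles were listed in all libraries of 1 breed and none of the other. All 3 Boer and no Macheng black library listed 2 multi-exon circles, from ITGB1 and SEC23IP, against 64 of all 13950 circRNAs (0.459%). All 3 Macheng black and no Boer library listed 4, among them circles of ITCH, AADAT and PAN3, against 35 of all (0.251%). ITGB1, the gene of the integrin beta-1 subunit, gave 2 multi-exon circles. Together they had 30, 2 and 14 reads in Boer 1 to 3 and 5, 3 and 2 in Macheng black 1 to 3. The ITGB1 circle listed in Boer goats only lay at 126874 to 128738 on scaffold KB009937.1 and had 14, 2 and 2 reads in Boer 1 to 3. With the unlisted breed set to 1 read in each library, 3 over the group, it was at least 3.78-fold higher in Boer goats (edgeR adjusted p = 0.869), and at least 1.97-fold without Boer 1, which held most of its reads. The SEC23IP circle at chr26:38428786-38443320 had 9, 2 and 2 reads, at least 2.90-fold higher on the same footing and at least 1.97-fold without Boer 1.

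The ITCH circle at chr13:61854918-61893416 listed 4 exons and had 5, 4 and 4 reads in Macheng black 1 to 3, at least 5.19-fold higher there (edgeR adjusted p = 0.827). Another ITCH circle from the same start, ending at 61865645, was listed in all 6 libraries with 14, 4 and 4 reads against 8, 12 and 3. AADAT, an aminotransferase gene of lysine and tryptophan breakdown, gave a circle at chr8:1815110-1843802 with 4, 3 and 5 reads, at least 5.03-fold higher. PAN3, which codes for a subunit of a deadenylase, gave one at chr12:29624243-29636928 with 3, 5 and 2 reads, at least 3.68-fold higher. The HMCN1 circle at chr16:64558157-64572135 had 2, 0 and 0 reads in Boer goats and 7, 3 and 6 in Macheng black goats, and its levels of 10.3 ± 17.9 and 163 ± 86.0 CPM did not overlap (edgeR adjusted p = 0.887). All of these rest on few reads, and none passed the adjusted threshold.

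**Figure D5:**
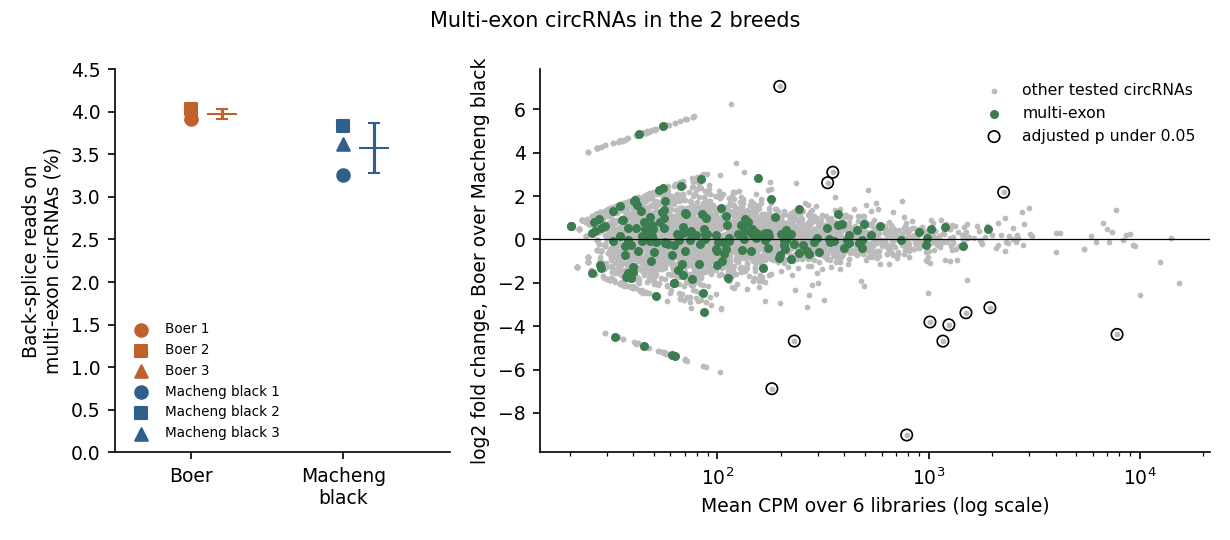
Left, percent of back-splice reads on multi-exon circRNAs (y axis) in the 3 Boer and 3 Macheng black libraries, with bars at the mean ± SD. Right, log2 fold change of Boer over Macheng black (y axis) against mean level (x axis) for all 3712 circRNAs tested, with the 182 multi-exon circles in green and the 13 past an adjusted p of 0.05 ringed. The Boer libraries lie between 3.91% and 4.03% and the Macheng black libraries between 3.26% and 3.84%, and the multi-exon points lie among the others with a median of 0.11.

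As a class, multi-exon circles took 3.97% ± 0.0587 of back-splice reads in Boer goats and 3.57% ± 0.291 in Macheng black goats. Every Boer library was above every Macheng black library, and the exact permutation p of 0.1 is the smallest that 3 against 3 allows. The share moved with 1 locus: 13 circles at chr23:24338001-24405648, none of them multi-exon, took 15.2% of the reads of Macheng black 1 and 0.0548% to 3.83% of the other libraries. Without that locus, an alternative added after seeing the data, the shares were 4.04% and 3.80% (exact permutation p = 0.1). Multi-exon circles were 4.60% ± 0.139 of the circles listed in Boer and 4.67% ± 0.0725 in Macheng black libraries (exact permutation p = 0.5). They had 2.61 ± 0.0106 and 2.66 ± 0.0590 listed exons on average (exact permutation p = 0.3) and library medians of spliced length of 10488 ± 311 and 10585 ± 1042 bases (exact permutation p = 1.0).

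Reads were also summed over all circles of each host and tested. Of 434 hosts, 5 passed an adjusted p of 0.05 in edgeR's test (1.15%), 4 towards Boer (0.922%) and 1 towards Macheng black goats (0.23%), and 0 of the 215 that hosted multi-exon circles did. The breeds did not overlap in 25 of these 215, against 11.5% of all hosts tested: 16 had the Boer libraries on top (6.68% of all) and 9 the Macheng black libraries (4.84% of all). At an unadjusted p under 0.05 there were 10 of these 215 (4.65%), against 32 of all 434 (7.37%). DESeq2 called 0 of the 215, against 1 of all 434. Its unadjusted p was under 0.05 in 4 of the 215 (1.86%), against 20 of all 434 (4.61%). Host CPM counts only back-splice reads on circles with a usable host, so it is not on the scale of the single circles above. The 126 reads of CAMSAP1 in Boer 1 were 1948 CPM as a circle and 10415 CPM as a host. NBEA, the gene of the scaffold protein neurobeachin on chromosome 12, came nearest. The summed level of its circles was 6530, 4593 and 4956 CPM in Boer 1 to 3 and 1309, 3038 and 1683 in Macheng black 1 to 3, without overlap. The log2 fold change was 1.38 ± 0.41 (SE) with an edgeR adjusted p of 0.0532. When 1 library was left out, the log2 fold change ran from 1.14 to 1.90. The edgeR adjusted p then ran from 0.0372, without Macheng black 2, to 0.434, so the result depended on which library was left out. Only 20 reads of this host lay on its 2 multi-exon circles, with 8, 0 and 9 in Boer 1 to 3 and 0, 3 and 0 in Macheng black 1 to 3. STARD7, the gene of a phosphatidylcholine transfer protein, had 2562, 2187 and 2065 CPM against 491, 608 and 481 (log2 fold change 2.06 ± 0.67, edgeR adjusted p = 0.0937), and 2 of its reads lay on a multi-exon circle. CNTRL, a centriole gene, was listed in the 3 Boer libraries only (165, 1312 and 688 CPM, edgeR adjusted p = 0.411), and WDR11 and ITGB1 had log2 fold changes of 1.97 ± 0.91 and 1.60 ± 0.75. Towards Macheng black goats the smallest p-values were those of AADAT, LOC102171502, SIPA1L2, SMARCA5 and KIAA1468, with edgeR adjusted p from 0.367 to 0.958.

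Hosts were finally described by gene lists. None of the lists for granulosa cells (15 genes), theca and stroma (15), the oocyte (15), endothelium (12), leukocytes (14) or steroid and sterol handling (24) held a multi-exon host. In the same order, 15, 12, 14, 12, 12 and 21 of these genes were in the gene reference, and the others could not be found as hosts. Among 26 genes of BMP and TGF-beta signalling, which governs follicle growth and ovulation rate, 3 receptor genes were hosts, with 8 circles and 144 reads. TGFBR2, the type II TGF-beta receptor, gave a circle at chr22:5057142-5061803 with 33, 9 and 10 reads in Boer 1 to 3 and 17, 33 and 4 in Macheng black 1 to 3. The BMP type I receptor genes BMPR1A and BMPR1B gave 4 and 3 circles with 20 and 18 reads. With reads summed over all circles of each host, the 3 hosts had negative log2 fold changes. Their median was -0.50 against 0.07 over all hosts tested, and 0 of the 3 passed the test.

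Among 22 genes of ovulation and matrix remodelling, 4 were hosts, with 17 circles and 181 reads: HMCN1, ITGB1, LAMC1, a laminin subunit gene, and HSPG2, the perlecan gene. The HSPG2 circle listed 5 exons at chr2:130135179-130141365 and had 3, 4 and 6 reads in Boer 1 to 3 and 2, 3 and 9 in Macheng black 1 to 3. LAMC1 gave 2 multi-exon circles, with 11, 2 and 12 reads together against 2, 10 and 3. The one at chr16:61805864-61811873 had 7, 2 and 3 reads against 2, 8 and 3. The median log2 fold change of the 4 hosts was 0.26. Like the medians below, it is from reads summed over all circles of a host, while the circles and reads counted here are multi-exon only. Of 35 genes known to host circles in several mammals (33 in the gene reference), CAMSAP1, ATXN10 and SMARCA5 were multi-exon hosts. They had 9 circles, 661 reads and a median of -0.12, and SMARCA5 had 3 of its 1148 reads on a multi-exon circle. Of 26 ubiquitin ligase genes (25 in the gene reference), ITCH, UBE3A and RNF216 were hosts (10 circles, 91 reads, median 0.73). ITCH had a log2 fold change of -0.50, with 78 of its 89 reads on multi-exon circles. UBE3A (0.73) had 11 of 101 reads on them and RNF216 (0.86) had 2 of 81. Of 30 histone-modifying genes (28 in the gene reference), EHMT1, CREBBP and KDM5B were hosts (5 circles, 311 reads, median 0.34). Of 20 genes of circRNA formation and splicing, 1, the helicase gene DHX9, was a host, with 1 circle of 2 reads in Boer 2. No host of these lists passed the adjusted threshold.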

How the data were processed

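CircRNAs were taken from 6 annotated tables, 1 per goat. Per the file headers, the deposited values are counts of back-splice (junction) reads and of non-junction reads, with full and spliced lengths in bases. The submitters' processing notes name the tools TopHat2 and Bowtie2 2.0.6. Neither the caller of the circles nor the build and annotation is given in the sources used here. Gene symbols came from a RefSeq gene table of ARS1.2, which matched 297 of 304 hosts. Entries of a circle were joined over tables, and its exon number is the largest listed. In 83 circles the listed parts differed between tables, and 47 listed fewer than 2 exons in some table. Of 829 identifiers, 27 were set aside. A further 44 entries with 2 or more exons named several genes and were left out.

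Breeds were compared with edgeR 4.0.16 (R 4.3.3): TMM, quasi-likelihood test, at least 2 reads in at least 3 libraries, Benjamini-Hochberg adjustment over all features tested at 0.05. Library size came from all back-splice reads in the test per circRNA. In the test per host it came from the back-splice reads on circles with a usable host. CPM used the TMM-scaled library sizes. The biological coefficient of variation was 0.602 per circRNA and 0.448 per host. Library summaries were compared with exact permutation tests (scipy 1.17.1). Alternatives were DESeq2 1.42.0, no TMM, other count filters, a replicate block, leaving out each library, thinning to equal reads, 3 or more exons, only hosts with both classes, and at least 5 reads. The edgeR steps were tested on simulated counts. Named circles were the 10 most abundant, the 5 with the smallest p in each direction, and the 5 with the most exons, the longest and the shortest spliced length. Named hosts were the 8 with the most circles, the 5 with the smallest p in each direction and up to 4 per list. Members, lists and rules were chosen with earlier results of these data known. Some named circles and hosts are not reported here. A few circles of these hosts were named beside them after their values were seen. The labels give each breed 3 goats, and p-values measure the spread between them.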

Additional observations from a re-analysis of the deposited data

How the results depend on the processing

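The breed test called 0 multi-exon circRNAs under every alternative run, with a smallest adjusted p by edgeR or DESeq2 between 0.124 and 0.999. Of all circRNAs tested, these alternatives called from 1 (without Boer 2) to 35 (without the count filter, of 13950). For hosts of multi-exon circles it called 0, with 1 exception without Macheng black 2 (NBEA), a range of 0 to 1 when 1 library was left out. Of all hosts tested, the alternatives called from 0 (with the replicate block) to 5 (without TMM). The low back-splice share and the greater span of the class kept their direction under leave-one-out. With 1 library left out, 5 pairs cannot give an exact permutation p below 0.0625 (0.0781 adjusted), so none of those differences could pass.

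Multi-exon minus single-exon, leaving out 1 library moved the back-splice share from -2.04 to -1.75 points, recurrence from -3.99 to -3.20 points, spliced length from 6368 to 6758 bases and span from 6104 to 6385 bases. Multi-exon minus intron-only, the same ranges were -3.05 to -2.69, 5.35 to 7.97, 4887 to 5365 and 4892 to 5365. Among circles with at least 5 reads the 4 differences against single-exon circles were -3.23, -2.16, 8190 and 7354, and against intron-only circles -4.68, -0.762, 5747 and 5938. Among hosts with both classes they were -1.62, -1.24, 7165 and 7188, and -2.64, 12.3, 7693 and 7977. In these settings the adjusted p was 0.0521 wherever the direction held in all 6 libraries, since fewer of the 10 comparisons reached the smallest p. With 3 or more exons, recurrence stood 6.58 points above intron-only circles, past no threshold. At spans of 5000 to 15000 bases the differences were -0.705, -7.36, -182 and -163 against single-exon circles, and -1.44, -3.56, 476 and 459 against intron-only circles, where the span limits themselves remove most of the length difference.

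No breed summary could pass the test, since 3 libraries against 3 cannot give a p below 0.1, so only the sizes and signs of these differences are given, and some changed sign. The difference in the number of multi-exon circles (Boer minus Macheng black) ran from -9.17 to 77.8 when 1 library was left out, negative without Boer 1. That in median spliced length ran from -604 to 437 bases, and was 257 after thinning to equal reads. The difference in the multi-exon share of circles became 0.512 points among those with a usable host, and that in the share with an intron 0.0284 points after thinning. Circles with log2 fold changes near 0 changed sign: MED17 531840 to 539799 (-0.022 by DESeq2; -0.12 to 0.28 when 1 library was left out), MED17 533364 to 539799 (-0.56 to 0.024) and SATB1 (0.014 without TMM, 0.019 without the count filter; -0.51 to 0.53). The cause of these changes was not tested.

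The titles in the labels number the goats 1 to 3 in each breed. The sample codes in the labels do not all carry the same numbers, and the titles were used. Same-numbered libraries did not deviate together (correlations over circRNAs of -0.0324, -0.0367 and 0.00766), so the numbers were not taken as pairs. With the replicate block, edgeR called 0 multi-exon circRNAs (smallest adjusted p 0.999) and 0 of their hosts (0.0789). Of all tested it called 11 of 3712 circRNAs and 0 of 434 hosts. The exact permutation p of the multi-exon read share was 0.25, the smallest that 3 pairs allow.

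Depth limited which circles were tested: 421 of the 603 circles had too few reads to be tested, and 323 were listed in 1 library only.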

Other observations

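The same circle was not always annotated alike. Among circles with differing entries, 135 exons were listed in one library's entry and left out of another's. Their median length was 156 bases (quartiles 152 and 166), and 122 of the 135 (90.4%) were under 180 bases, against 44.2% of 3415 listed exon instances. Non-junction reads did not follow the depth of back-splice reads. Over the 55 multi-exon circles listed in all 6 libraries, Boer 1 had the most back-splice reads (1591) and the fewest non-junction reads (30752), while Macheng black 3 had the fewest back-splice reads (532) and the most non-junction reads (42272). The back-splice share over these circles was 4.92%, 1.74% and 2.49% in Boer 1 to 3 and 2.02%, 2.95% and 1.24% in Macheng black 1 to 3, so the breeds overlapped. Non-junction reads of overlapping circles are counted more than once in these sums.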
